A study of Mus musculus with 45 samples.

Results

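Histone-modifying enzymes, DNA methylation enzymes and chromatin remodellers were followed in the nucleus accumbens (NAC) of mice after chronic intermittent ethanol (CIE). The set held 45 genes chosen by name in 7 classes: 10 histone deacetylases, 5 acetylases, 7 histone methylases, 7 demethylases, 7 genes of DNA methylation, 7 remodellers and 2 genes of histone ubiquitination. A gene was measured where an Affymetrix probeset, the group of short probes that reports 1 transcript, was annotated with that symbol alone. This held for 43 of the 45 genes, with 111 probesets, out of 18193 genes and 45037 probesets in all. Suv39h1 and Ash1l, both histone methylases, had no such probeset. Each gene is represented by its probeset of highest mean ("brightest"), and its other probesets serve as a check. None of the 43 genes differed between CIE and Ctrl mice at a false discovery rate of 0.01 at any of the 4 times. The shares of all genes that did were 1.93% at 0 h, 0.0824% at 8 h and 0% at 72 h and 7 d. At the brightest probesets, the 95% confidence interval of the difference lay within ±0.5 log2 units for 42 of the 43 at each time. Some dimmer probesets of these genes had larger differences, given below.

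The animals were adult male C57BL/6J mice, an inbred strain, and each array holds the NAC of 1 mouse. Exposure ran in 4 cycles, each with 16 h of inhalation on each of 4 days, and 7 days without ethanol lay between cycles. CIE mice breathed ethanol vapor at 10 to 13 mg/l and received ethanol (1.6 g/kg) with pyrazole (1 mmol/kg), which blocks alcohol dehydrogenase, before each cycle. Ctrl mice breathed air and received saline with the same dose of pyrazole, so that every group had the inhibitor. Mice were killed at the end of the final cycle (0 h) or 8 h, 72 h or 7 d later, with 6 arrays per group except for Ctrl 8 h, CIE 8 h and CIE 72 h, which had 5 each. CIE at a given time is compared with Ctrl at the same time, which asks how the transcripts stand at the end of exposure and through withdrawal.

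DNA in the nucleus is wound around histones, and the tails of these proteins carry acetyl, methyl and ubiquitin groups that change how readily a gene is transcribed. Acetylases add acetyl groups, which generally go with active genes, and deacetylases take them off. Methylases and demethylases set and remove methyl groups, whose effect depends on the residue that carries them. DNA methyltransferases methylate cytosine, Tet enzymes oxidise the methylated base, and Mbd proteins bind it. Remodellers use ATP to slide or evict nucleosomes. In the accumbens, enzymes of several of these classes are widely studied for their part in lasting responses to drugs of abuse.

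The values are log2 RMA intensities, and a difference of 1 is a doubling. Medium spiny neurons are the principal cells of the NAC, and the 9 of their 11 markers that could be measured had means from 10.13 to 13.70, with 0 of them past the 0.01 threshold at 0 h in limma. Other cell types were followed by marker lists as the mean deviation from the average of all arrays. For medium spiny neurons this ran from -0.09 to 0.24 in Ctrl 0 h and from -0.48 to 0.22 in CIE 0 h. For microglia it ran from -0.21 to 0.37 in Ctrl 0 h and from -0.36 to -0.02 in CIE 0 h, and 1 of 6 microglial markers passed at 0 h. The markers of cortical pyramidal neurons, which lie outside the NAC, varied most, from -1.50 to 0.80 in Ctrl 0 h and from -1.29 to 1.53 in CIE 0 h. The part of these differences in the results that follow was not tested, and in bulk tissue fewer cells of a type and less RNA per cell cannot be told apart.

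Some arrays stood apart in a subset of the members' probesets. Of the 111 member probesets, 13 had a standard deviation above 0.4 within groups (11.7%, against 3.77% of all probesets with 1 symbol). These 13 report 9 genes, namely Kdm5a, Dnmt3a, Smarca2, Bptf, Smarca5, Crebbp, Chd4, Kdm5c and Kat2b, and only that of Crebbp is the brightest of its gene. The same 4 arrays were lowest in their mean: Ctrl 7 d replicate 62 at -1.36, CIE 8 h replicate 15 at -1.25, CIE 0 h replicate 72 at -1.10 and CIE 0 h replicate 67 at -0.99. Each of the 4 was among the 6 lowest arrays in 12 or 13 of the 13 probesets. By medium spiny neuron markers, CIE 0 h replicates 72 and 67 and CIE 8 h replicate 15 were at -0.48, -0.31 and -0.28. They ranked 1, 3 and 4 from the lowest of the 45 arrays, while Ctrl 7 d replicate 62, at 0.03, ranked 26. By cortical pyramidal markers the 4 arrays were, in that order, at 1.53, 1.05, 0.69 and -0.08. The part of tissue make-up in the 13 probesets was not tested. In the 13 probesets the Ctrl 0 h group averaged 0.41 ± 0.49 (SD, n = 6) and CIE 0 h -0.17 ± 0.70 (SD, n = 6). Ctrl 72 h averaged 0.41 ± 0.59 (SD, n = 6) against -0.31 ± 0.26 (SD, n = 5) in CIE 72 h. The differences at 0 h in the 13 probesets ran from -0.82 to -0.13 in all arrays and from -0.33 to 0.23 without these 4. That choice was made after the values were seen. The 4 were picked as the lowest in these same probesets, and they include CIE 0 h arrays but no Ctrl 0 h array. Leaving them out thus had to raise the mean of these probesets in CIE 0 h and is no independent check. Where single values of these probesets follow, the value without the 4 arrays is given too for the times they touch, which are 0 h, 8 h and 7 d.

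**Figure D1:**
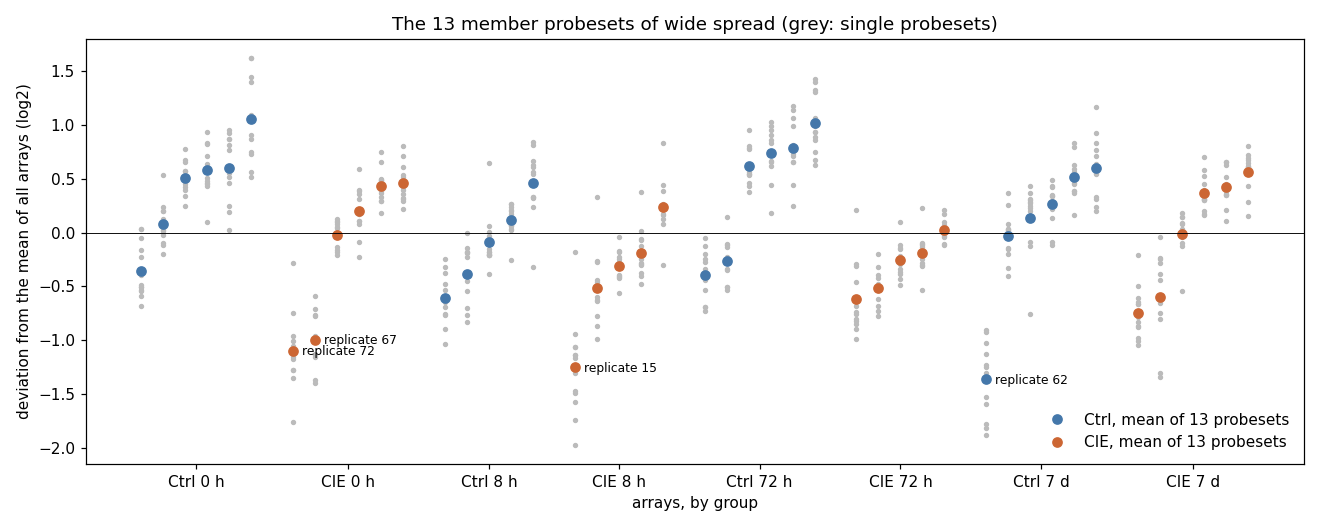
Deviation of each array from the mean of all 45 arrays (y axis, log2) in the 13 member probesets of wide spread, with arrays on the x axis sorted within the 8 groups. Grey points are single probesets and coloured points their mean; the 4 lowest arrays, from -1.36 to -0.99, are labelled with their replicate number.

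At 0 h, 0 of 43 members passed at 0.01 in limma with Benjamini-Hochberg adjustment over all probesets, against a background of 1.93% of all genes, and 0 passed at 0.05 (background 4.81%). At an unadjusted p under 0.05 there were 2 members with higher values in CIE (background 11.6%) and 5 with lower values (background 6.86%). The differences were positive for 16 members and negative for 27, with a median of -0.01 (-0.05 without the 4 arrays), while the median over all genes was 0.02. The 95% confidence interval lay within ±0.5 for 42 of the 43 members, the exception being Crebbp. No member separated the groups without overlap at 0 h (background 1.63%).

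At 8 h the count at 0.01 was again 0 of 43 in limma (background 0.0824%), as it was at 0.05 (background 0.242%). At an unadjusted p under 0.05, 4 members were higher (background 4.46%) and 2 lower (background 3.57%), and 1 member, Hdac3, separated the groups without overlap (background 2.1%). At 72 h 0 of 43 passed (background 0%), 0 members were higher at an unadjusted p under 0.05 (background 3.69%) and 1 was lower (background 0.874%), with no member free of overlap (background 0.742%). At 7 d 0 of 43 passed (background 0%), 0 had an unadjusted p under 0.05 (background 1.97%) and 0 were free of overlap (background 0.0824%). The members' differences at 7 d spanned only -0.08 to 0.16. Their medians were -0.03 at 8 h, 0.0048 at 72 h and 0.0049 at 7 d, against 0.0035, 0.03 and -0.0026 for all genes.

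**Figure D2:**
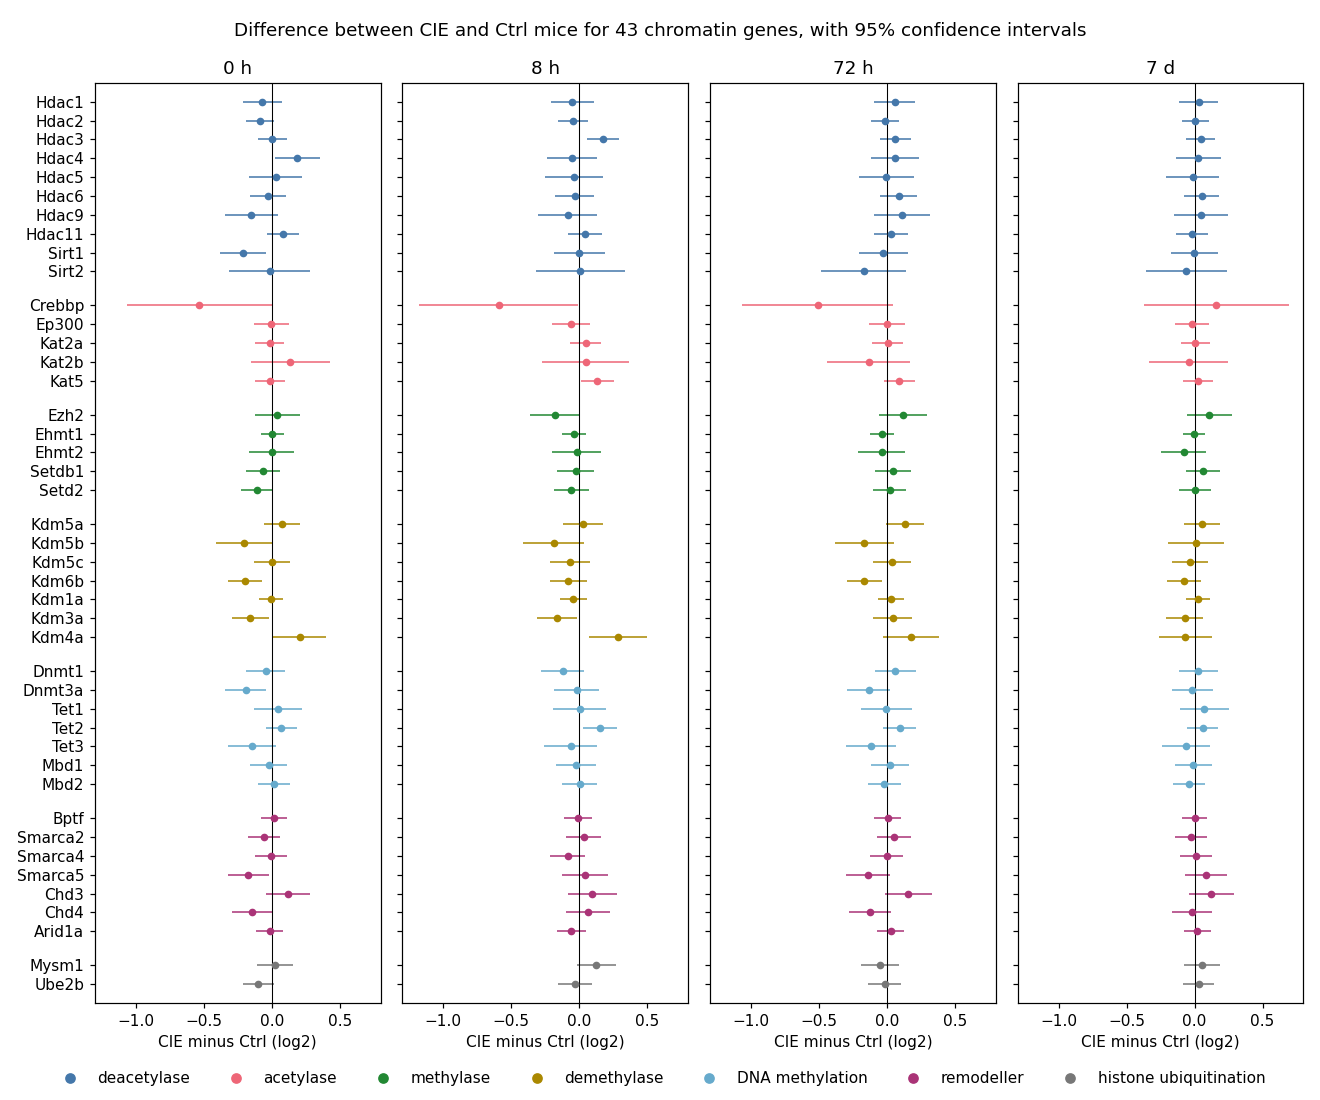
Difference between CIE and Ctrl (x axis, log2) at each of the 4 times for the 43 members, coloured by class, with 95% confidence intervals from limma. Intervals lie within ±0.5 for 42 of 43 genes at every time, and Crebbp, at -0.53, -0.59, -0.51 and 0.16, has the widest.

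Histone deacetylases showed differences from -0.21 to 0.19 at 0 h, with a median of -0.02, and from -0.09 to 0.18 at 8 h, with a median of -0.04. At 72 h the range was -0.17 to 0.11 and at 7 d -0.06 to 0.05. Sirt1, an NAD-dependent deacetylase, had values of 9.10, 9.37 and 9.67 (lowest, median, highest) in Ctrl 0 h and 9.02, 9.13 and 9.28 in CIE 0 h. All CIE arrays lay below the Ctrl median although the ranges overlap, and the difference of -0.21 (SE 0.084) did not pass (limma, adjusted p = 0.17). Hdac4, a class II enzyme that shuttles between nucleus and cytoplasm, went the other way at 0 h, with a difference of 0.19 (SE 0.082, adjusted p = 0.22). Its Ctrl 0 h arrays spanned 7.96 to 8.45 and its CIE 0 h arrays 8.31 to 8.64, which overlap.

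Hdac3, the catalytic subunit of the NCoR and SMRT corepressor complexes, gave 10.44, 10.45, 10.48, 10.48 and 10.50 in Ctrl 8 h and 10.53, 10.55, 10.70, 10.70 and 10.74 in CIE 8 h. Every CIE array at 8 h was above every Ctrl array (background 2.1%). It follows that CIE was higher within each of the 5 hybridization sets that hold both groups, by 0.05 to 0.30, which is no separate support. The difference of 0.18 (SE 0.058) missed the threshold (limma, adjusted p = 0.28). It was 0.00 at 0 h, 0.06 at 72 h and 0.04 at 7 d, and the difference between the contrasts at 8 h and 0 h was 0.17 (SE 0.079, adjusted p = 0.88). Hdac3 has 1 probeset here, so no other could serve as a check.

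Hdac2, a class I deacetylase of the Sin3, NuRD and CoREST complexes, depended on how its 3 probesets were used. At the brightest, Ctrl 0 h ran from 11.38 to 11.67 and CIE 0 h from 11.36 to 11.49, with a difference of -0.09 (SE 0.049, limma, adjusted p = 0.39). The other probesets gave -0.33 (SE 0.134, adjusted p = 0.18) and -0.13 (SE 0.062, adjusted p = 0.26) at 0 h. In the first of these all 6 CIE 0 h arrays, from 7.23 to 7.46, were below all 6 Ctrl 0 h arrays, from 7.49 to 7.82. With the mean of each gene's probesets in place of the brightest, Hdac2 fell by 0.18 at 0 h (limma, adjusted p = 0.0088). It was the only member to pass in that setting, in which 374 of all 18193 genes passed. Hdac2 was singled out after its values were seen, and the share of all probesets without overlap was not computed.

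At the brightest probesets, Crebbp was the only acetylase that differed by more than 0.2 in either direction. Ep300, Kat2a and Kat5 had differences between -0.01 and 0.00 at 0 h, and Kat2b, also known as PCAF, 0.14 (SE 0.144). Kat5, the Tip60 acetylase, had a difference of 0.13 (SE 0.060) at 8 h, which did not pass (limma, adjusted p = 0.61). Crebbp, the CREB-binding protein, had the largest differences among the members: -0.53 (SE 0.263) at 0 h, -0.59 (SE 0.288) at 8 h and -0.51 (SE 0.276) at 72 h, with adjusted p values of 0.30, 0.66 and 0.71. In Ctrl 8 h its values were 9.88, 10.36, 10.46, 10.73 and 10.78, and in CIE 8 h 8.99, 9.59, 10.05, 10.06 and 10.54. The groups overlap, and its brightest probeset is one of the 13 of wide spread. Without the 4 arrays that stood apart, the differences at 0 h and 8 h were -0.08 and -0.38, and that at 7 d was -0.07 in place of 0.16. Of the 3 other Crebbp probesets, 2 had differences of 0.07 (SE 0.056) and 0.03 (SE 0.064) at 0 h and the last, of wide spread, had -0.38 (SE 0.339), or -0.12 without the 4 arrays.

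Ezh2, the catalytic subunit of Polycomb complex PRC2, Ehmt1 and Ehmt2, which methylate H3K9, Setdb1, also an H3K9 methylase, and Setd2, which trimethylates H3K36, had differences from -0.11 to 0.04 at 0 h. All 5 were negative at 8 h, from -0.18 for Ezh2 to -0.02 for Ehmt2, and none passed (smallest adjusted p in limma 0.68). Ehmt1 was measured with the smallest error among the members, with a difference of 0.01 (SE 0.041) at 0 h.

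Demethylases held the smallest p values at 0 h and 72 h. Kdm6b, or JMJD3, which removes the repressive H3K27 methyl mark, had values of 8.94, 9.08 and 9.21 (lowest, median, highest) in Ctrl 0 h and 8.80, 8.89 and 8.96 in CIE 0 h. The groups overlapped narrowly, and CIE was lower within all 5 hybridization sets with both, by 0.06 to 0.31. These sets hold the same arrays, so this is no separate support. The difference of -0.19 (SE 0.061) did not pass (limma, adjusted p = 0.064). At 72 h Ctrl ran from 8.83 to 9.17 with a median of 8.93, and the CIE arrays had 8.69, 8.74, 8.75, 8.78 and 9.00. The difference was -0.17 (SE 0.064, adjusted p = 0.67), and at 8 h and 7 d it was -0.08 and -0.08. Over all 4 times together, the F test for Kdm6b gave an adjusted p of 0.076. Of its 2 other probesets, one was at -0.17 (SE 0.087) and the other at 0.03 (SE 0.067) at 0 h.

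Kdm4a, which demethylates H3K9 and H3K36, had the smallest p of the members for time within CIE mice. Its values were 8.32, 8.36 and 8.48 (lowest, median, highest) in CIE 0 h, and 8.16, 8.32, 8.43, 8.46 and 8.52 in CIE 8 h. They were 8.00, 8.05, 8.28, 8.29 and 8.34 in CIE 72 h and 7.75, 7.99 and 8.07 in CIE 7 d. All CIE 0 h arrays were thus above all CIE 7 d arrays, and Kdm4a fell by 0.41 (SE 0.097) from CIE 0 h to CIE 7 d, to 0.750 of its level (limma, adjusted p = 0.0079; background of genes that fell, 1.14%). This step was singled out after the values were seen, and the share of all genes without overlap between CIE 0 h and CIE 7 d was not computed. With the hybridization sets as a block the adjusted p of the step was 0.020. When 1 array was left out at a time, the adjusted p of this step ran from 0.009 to 0.031 and stayed at or under 0.01 in 1 of 12 fits. The Ctrl groups had means of 8.17, 8.10, 8.02 and 8.03 at the 4 times. Against Ctrl, Kdm4a stood at 0.20 (SE 0.097) at 0 h, 0.28 (SE 0.106) at 8 h, 0.17 (SE 0.101) at 72 h and -0.07 (SE 0.097) at 7 d, with adjusted p values of 0.27, 0.41, 0.72 and 1.00. Its other probeset had a difference of 0.04 (SE 0.142) at 0 h.

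Kdm3a, an H3K9 demethylase, was at -0.16 (SE 0.066) at 0 h and -0.17 (SE 0.073) at 8 h, then at 0.04 at 72 h. Its adjusted p was 0.20 at 0 h and 0.56 at 8 h (limma). The H3K4 demethylases were Kdm5a, Kdm5b, Kdm5c and Kdm1a. Kdm5b had a difference of -0.21 (SE 0.103) at 0 h, Kdm5a 0.08, and Kdm5c and Kdm1a 0.00 and -0.01. Kdm5a had the second smallest p at 72 h, with a difference of 0.13 (SE 0.069, adjusted p = 0.70).

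**Figure D3:**
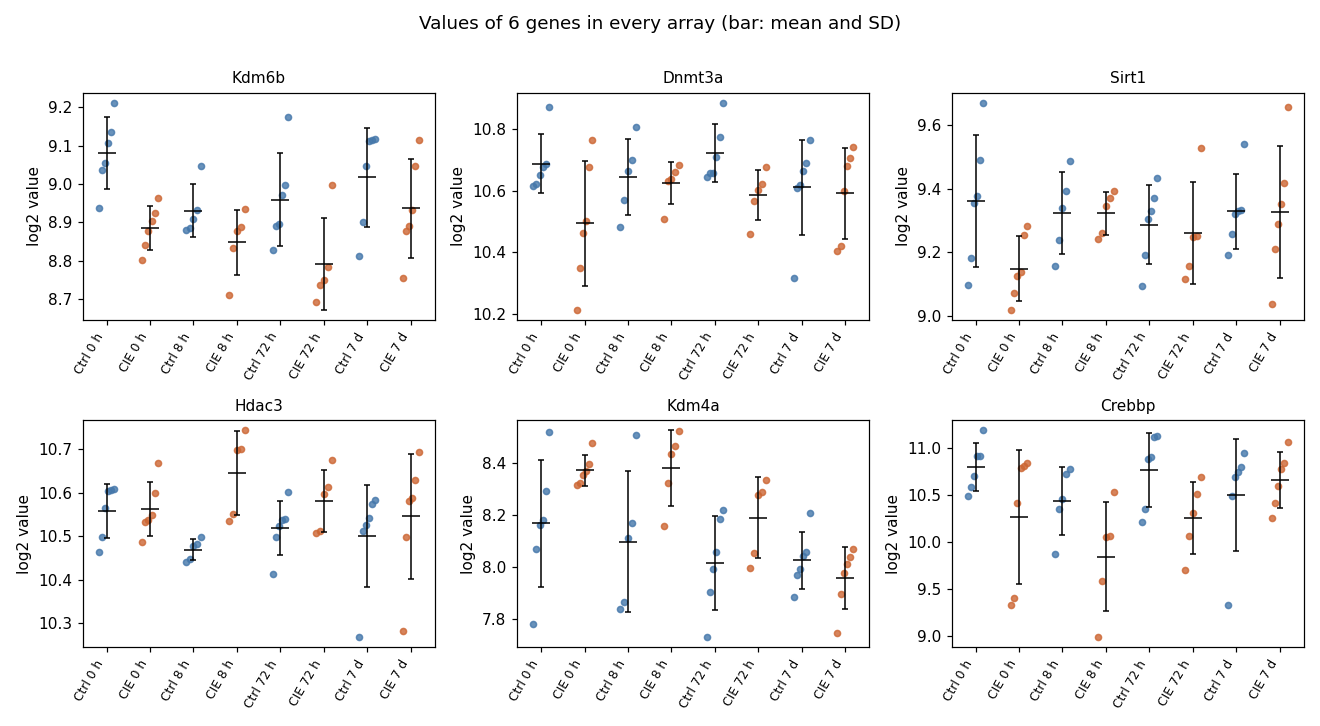
Log2 values (y axis) of Kdm6b, Dnmt3a, Sirt1, Hdac3, Kdm4a and Crebbp at their brightest probesets in every array, by group (x axis; Ctrl blue, CIE orange), with mean and SD as bars. Hdac3 separates at 8 h, Kdm4a has CIE means from 8.37 at 0 h to 7.96 at 7 d, and Crebbp has single arrays far below the rest of their group.

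Among the genes of DNA methylation, Dnmt3a, the de novo methyltransferase, stood lowest at 0 h. Its brightest probeset had 10.61, 10.66 and 10.87 (lowest, median, highest) in Ctrl 0 h and 10.22, 10.48 and 10.76 in CIE 0 h, a difference of -0.19 (SE 0.075, limma, adjusted p = 0.16). The groups overlap there. A second Dnmt3a probeset had 10.41, 10.45 and 10.51 in Ctrl 0 h against 10.07, 10.18 and 10.42 in CIE 0 h. This difference of -0.24 (SE 0.057) came close to the 0.01 threshold (adjusted p = 0.0103). CIE was lower within 5 of 5 hybridization sets, which hold the same arrays and give no separate support. The difference was -0.18 at 8 h, -0.03 at 72 h and -0.04 at 7 d. Without the 4 arrays that stood apart it was -0.21 at 0 h (adjusted p = 0.059). Of the 3 remaining Dnmt3a probesets, 2 are of wide spread, at -0.76 (SE 0.396) and -0.77 (SE 0.402) at 0 h, or -0.30 and -0.29 without the 4 arrays, and the last was at -0.04 (SE 0.065).

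Tet2, which oxidises 5-methylcytosine, gave 10.06, 10.08, 10.12, 10.14 and 10.15 in Ctrl 8 h and 10.14, 10.22, 10.23, 10.34 and 10.38 in CIE 8 h. The lowest CIE array fell within the Ctrl range, and the difference of 0.15 (SE 0.062) did not pass (limma, adjusted p = 0.49). It was positive at all 4 times, between 0.06 and 0.15. Tet1 was at 0.05 (SE 0.088) and Tet3 at -0.14 (SE 0.087) at 0 h. A dimmer Tet1 probeset had 7.19, 7.31 and 7.54 in Ctrl 72 h and from 6.80 to 6.96 in CIE 72 h, so that the groups did not overlap. Its difference was -0.47 (SE 0.112) with an adjusted p of 0.67. It was picked after its values were seen, and lack of overlap was counted over brightest probesets only (0.742% of genes at 72 h). Dnmt1, the maintenance methyltransferase, was at -0.04 (SE 0.071) and Mbd2 at 0.02 (SE 0.058) at 0 h.

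Mbd1, which binds methylated CpG, was at -0.02 (SE 0.067) at 0 h at its brightest probeset. Its 4 other probesets were all positive. A probeset with values of 5.66, 5.86 and 6.18 in Ctrl 0 h and 5.98, 6.18 and 6.26 in CIE 0 h gave 0.28 (SE 0.079, limma, adjusted p = 0.036). Another, from 4.02 to 4.59 in Ctrl 0 h and from 4.37 to 4.91 in CIE 0 h, gave 0.35 (SE 0.102, adjusted p = 0.038). The latter is among the dimmest of the member probesets, where the arrays' signal is hard to tell from background. The first of these probesets stayed at 0.20 at 8 h and 0.24 at 72 h and was at -0.07 at 7 d.

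Remodellers had differences from -0.17 to 0.12 at 0 h, with a median of -0.02. Smarca5, the ISWI ATPase, was at -0.17 (SE 0.076) at 0 h and did not pass (limma, adjusted p = 0.23). Its contrast at 7 d exceeded that at 0 h by 0.26 (SE 0.107, adjusted p = 0.37). The SWI/SNF ATPases Smarca2 and Smarca4 were at -0.06 (SE 0.058) and 0.00 (SE 0.058) at their brightest probesets. The other Smarca4 probeset was at -0.51 (SE 0.171, adjusted p = 0.084), or -0.29 without the 4 arrays, with values from 9.22 to 9.90 in Ctrl 0 h and from 8.53 to 9.31 in CIE 0 h. Chd4, the NuRD ATPase, was at -0.14 (SE 0.074), and its 2 other probesets, both of wide spread, at -0.69 (SE 0.265) and -0.66 (SE 0.291), or -0.33 and -0.32 without the 4 arrays. Chd3, its close relative, was positive at every time, at 0.12, 0.10, 0.16 and 0.12, and had the smallest p of the members at 7 d (SE 0.081, adjusted p = 1.00). It was followed there by Kdm6b at -0.08 and Ezh2 at 0.11, which did not pass either. Arid1a, a subunit of SWI/SNF, was at -0.02 (SE 0.048) at 0 h.

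Bptf, Mysm1 and Ube2b were named in the study for this region from these same arrays, so that what follows is not independent of that choice. The study named them as chromatin genes within a group of genes of correlated expression that held genes changed at 0 h. It cited earlier work in which they responded to acute ethanol, and its text states no change for each of them here. Bptf is the largest subunit of the remodeller NURF, Mysm1 takes ubiquitin off histone H2A, and Ube2b, or Rad6b, is an E2 enzyme that helps to put it on H2B. At the brightest probesets, Bptf ran from 11.77 to 11.89 (median 11.85) in Ctrl 0 h and from 11.74 to 11.94 (median 11.88) in CIE 0 h. The ranges overlap almost wholly, with a difference of 0.02 (SE 0.046, limma, adjusted p = 0.91). Mysm1 ran from 8.77 to 9.03 (median 8.86) in Ctrl 0 h and from 8.77 to 9.01 (median 8.95) in CIE 0 h, a difference of 0.03 (SE 0.066, adjusted p = 0.91). Ube2b ran from 12.15 to 12.34 (median 12.26) in Ctrl 0 h and from 11.98 to 12.27 (median 12.21) in CIE 0 h, a difference of -0.10 (SE 0.056, adjusted p = 0.38).

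Dimmer probesets of the same 3 genes were lower in CIE 0 h. For Ube2b all 3 others were negative. The one with values of 11.31, 11.56 and 11.64 in Ctrl 0 h and 11.15, 11.31 and 11.43 in CIE 0 h gave -0.23 (SE 0.059, limma, adjusted p = 0.018), or -0.17 without the 4 arrays (adjusted p = 0.11). The remaining ones gave -0.48 (SE 0.158, adjusted p = 0.078) and -0.10 (SE 0.038, adjusted p = 0.15). For Mysm1, a probeset with 8.26, 8.61 and 8.83 in Ctrl 0 h and 7.68, 8.28 and 8.56 in CIE 0 h gave -0.40 (SE 0.144, adjusted p = 0.11), or -0.19 without the 4 arrays. At 7 d it was at 0.07. The last Mysm1 probeset was at 0.32 (SE 0.184). For Bptf, a probeset of wide spread, from 7.81 to 8.84 in Ctrl 0 h and from 6.41 to 8.32 in CIE 0 h, gave -0.82 (SE 0.345, adjusted p = 0.20). It gave -0.27 without the 4 arrays. At 7 d it gave -0.14, or -0.43 without them, and the other 2 Bptf probesets gave -0.11 (SE 0.042) and -0.10 (SE 0.052) in all arrays.

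**Figure D4:**
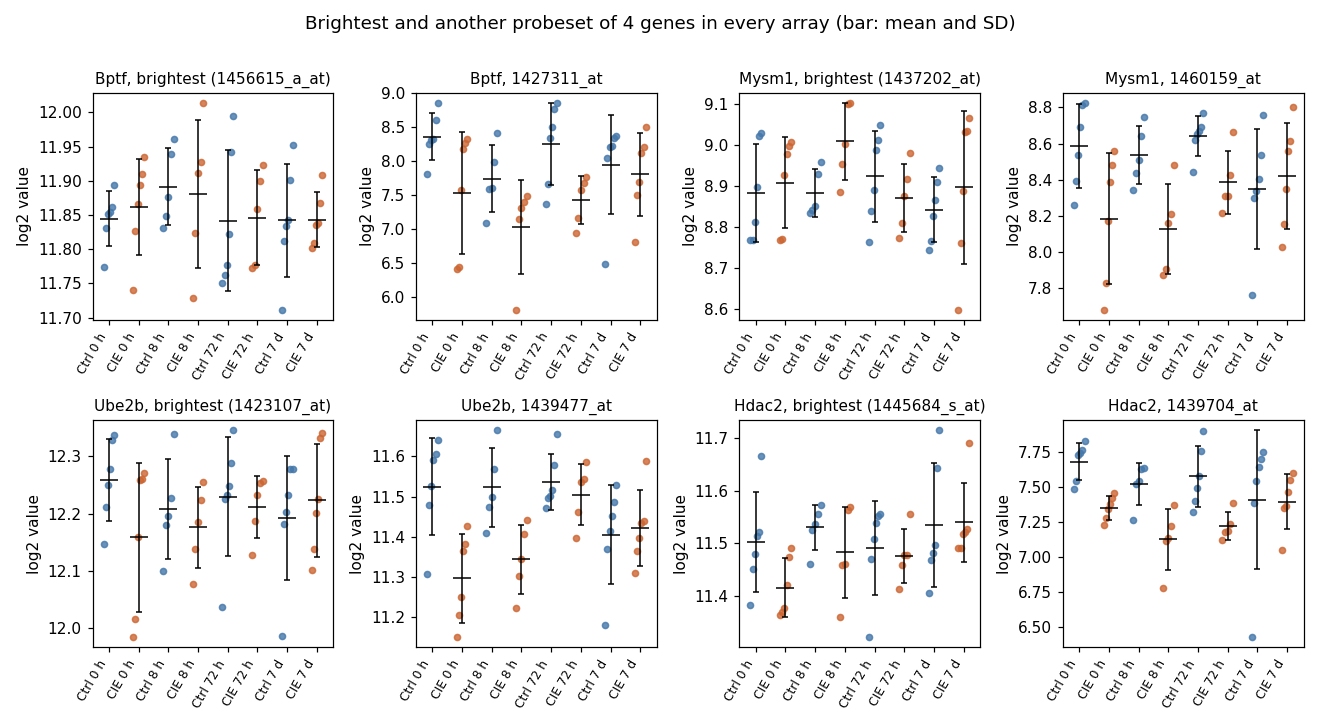
Log2 values (y axis) of the brightest probeset and of another probeset of Bptf, Mysm1, Ube2b and Hdac2 in every array, by group (x axis; Ctrl blue, CIE orange), with mean and SD as bars; y axes differ between panels. At 0 h the brightest probesets differ by 0.02, 0.03, -0.10 and -0.09 and the others by -0.82, -0.40, -0.23 and -0.33.

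Over all 111 member probesets at 0 h, 0 passed at 0.01 (background 1.73% of probesets with 1 symbol) and 4 at 0.05, namely those of Dnmt3a, Ube2b and Mbd1 (2) described above (background 4.26% of probesets with 1 symbol). At an unadjusted p under 0.05 there were 22 (background 17.3%). Of 30 genes with over 1 probeset, 17 had the same sign in all of them at 0 h, and 40 of 68 other probesets had the sign of the brightest. Neither share was computed over all genes.

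Whether the response differed between times was tested for each later contrast against that at 0 h. In limma, 0 of 43 members passed at 8 h minus 0 h (background 0%), 0 at 72 h minus 0 h (background 0.0824%) and 0 at 7 d minus 0 h (background 0.231%), with 1 member at an unadjusted p under 0.05 in each (backgrounds 6.6%, 8.88% and 11%). These were Hdac3 at 8 h, Kdm3a at 72 h (0.20, SE 0.096, adjusted p = 0.64) and Smarca5 at 7 d. In the F test over the 4 contrasts 0 of 43 passed at 0.01 (background 1.03%) and 0 at 0.05 (background 2.53%), with 6 members at an unadjusted p under 0.05 (background 13%).

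Time alone was compared within each treatment. In Ctrl mice 0 of 43 members passed the F test over time in limma (background 0.313%), with 0 at an unadjusted p under 0.05 (background 7.61%). In CIE mice 0 passed at 0.01 (background 3.07%) and 1, Kdm4a, at 0.05 (background 6.22%), with an adjusted p of 0.0103 and 4 members at an unadjusted p under 0.05 (background 19.4%). Across the 8 group means, CIE 0 h was the lowest for 14 of the 43 members and the highest for 1, Mbd2. The same share over all genes was not computed, so these counts are not read as a trait of the members. The range of the 8 means was 0.95 for Crebbp (0.74 without the 4 arrays), 0.42 for Kdm4a and 0.33 for Kat2b, and as little as 0.05 for Bptf and Kat2a. These ranges are set by the extremes of 8 groups and are given with no test.

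Other chromatin genes served as a wider view: 105 were listed, covering further subunits, readers, chaperones and modifying enzymes, and 98 were measured. At 0 h 1 of the 98 passed at 0.01, against the background of 1.93%, and 3 passed at 0.05, against 4.81%. The gene that passed was Kmt2a, or MLL1, an H3K4 methylase, which fell by 0.35 (SE 0.080, limma, adjusted p = 0.0067). Without the 4 arrays the difference was -0.27 (adjusted p = 0.086), and it passed in 5 of the 12 fits that left out 1 array. Nsd1, an H3K36 methylase, had a difference of 0.27 (SE 0.070, adjusted p = 0.019), and Ube2a, the close paralog of Ube2b, -0.17 (SE 0.050, adjusted p = 0.0499). At an unadjusted p under 0.05, 8 of the 98 were higher (background 11.6%) and 18 lower (background 6.86%), with a median over the 98 of -0.03. In limma 0 of 98 passed at 8 h, 72 h or 7 d, with 8, 6 and 3 at an unadjusted p under 0.05 (backgrounds 8.04%, 4.56% and 1.97%). Over time within CIE mice, 1 of the 98 passed the F test at 0.01, against a background of 3.07%. This was Hat1, which acetylates newly made histone H4 (adjusted p = 0.0065). Hat1 rose by 0.22 (SE 0.046) from CIE 0 h to CIE 7 d.

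Probesets other than the brightest passed at 0 h for 3 of these genes, which were picked out after their values were seen. How many such probesets the listed genes have was not counted, and 1.73% of all probesets with 1 symbol passed at 0 h. Nap1l1, a histone chaperone, fell by 0.29 (SE 0.048, limma, adjusted p = 0.00013) in 1 of its probesets. Cbx5, or HP1 alpha, which binds methylated H3K9, fell by 0.36 (SE 0.065, adjusted p = 0.00065) and by 0.29 (SE 0.067, adjusted p = 0.0078) in 2 probesets. Kmt5b, an H4K20 methylase, rose by 0.44 (SE 0.097, adjusted p = 0.0049) in a further one. Their brightest probesets gave -0.14 for Nap1l1, 0.0045 for Cbx5 and -0.15 for Kmt5b, and none of these passed. The Nap1l1 contrast at 7 d exceeded that at 0 h by 0.36 (SE 0.067, adjusted p = 0.0041).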

How the data were processed

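The files hold 1 log2 RMA value per probeset and array, made by the authors. Their methods give background correction and quantile normalization by hybridization batch, a second quantile normalization of all arrays and ComBat for the batch. No RMA version is stated in the sources used. Array medians lay between 6.94 and 6.96, and no value was altered. Detection calls were not used, and the number of arrays limits the precision.

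The platform annotation gave 34945 probesets a single symbol, 932 several and 9160 none, and 34741 of the first were found in RefSeq (GRCm38.p6). Replicates are separate mice. limma 3.58.1 (R 4.3.3) was run on 45037 probesets and 45 arrays, with a mean per group, and was tested on simulated data. There, changes of 0.2, 0.3, 0.5 and 1 log2 in CIE 0 h, 50 probesets each, were found at 0.01 in 6%, 28%, 74% and 92%. The simulated noise was normal and independent between probesets and arrays, and no other probesets were changed. These percentages may therefore not hold for the real arrays. P values were two-sided, Benjamini-Hochberg adjusted over all probesets of a contrast and called at 0.01. Members and lists were chosen with earlier results of these data known. Members that passed, and Bptf, Mysm1 and Ube2b, were to be shown by array, and otherwise the 3 members of smallest p at a time. Further genes and probesets were added after their values were seen. Promoters were to be shown for members that passed at 0 h, and none did.

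The labels give no batch. Arrays that shared at least 5 equal values (within 2e-08) were taken as a hybridization set, which gave 6 sets of 6 to 8 arrays, at most 1 per group in each, and left 1 array in none. These sets may differ from the authors' batches. Alternatives were a further quantile normalization, centring on medians, leaving out the 40% dimmest probesets, trend and robust settings, array weights, the sets as a block, 1 probeset or the mean of probesets per gene, 1 time alone, a threshold of 0.05, each array left out and, chosen after the data were seen, the 4 arrays that stood apart left out.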

Additional observations from a re-analysis of the deposited data

Results flagged for a closer look

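In the named members' probesets, 208 groups of 5 or 6 arrays were searched for a highest or lowest array far from the rest, and 15 were found, where chance gives about 1 in 20. Ctrl 7 d replicate 62 accounts for 8 of them and CIE 8 h replicate 15 for 3. In Ctrl 7 d replicate 62, Bptf was at 6.48 in its probeset of wide spread, against 8.04 to 8.37 in the other arrays, and Crebbp was at 9.33, against 10.49 to 10.95. The same array had 10.32 for Dnmt3a, 6.43 for a dim Hdac2 probeset, 10.27 for Hdac3, 8.61 for the second Smarca4 probeset, and 11.99 and 5.35 for 2 probesets of Ube2b, each the lowest of its group. In CIE 8 h replicate 15, Bptf was lowest at 5.81, while Hdac4 at 8.65 and Mbd1 at 6.31 were highest. The remaining ones were Dnmt3a at 10.87 in Ctrl 0 h replicate 30 and Hdac2 at 11.32 in Ctrl 72 h replicate 52, 11.69 in CIE 7 d replicate 13 and 10.70 in CIE 8 h replicate 1. What sets these arrays apart was not tested. Leaving out Ctrl 7 d replicate 62 left the count of members called at 7 d at 0.

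Nap1l1, among the other chromatin genes, differed between times: its contrast at 7 d exceeded that at 0 h by 0.36 (limma, adjusted p = 0.0041).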

How the results depend on the processing

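The count of members called was 0 in each of the 10 comparisons, and it stayed 0 in 99 of 105 values under the alternatives. With the mean of a gene's probesets it was 1 at 0 h (Hdac2), a setting in which 374 of all 18193 genes were called. For time within CIE it was 1 (Kdm4a) at a threshold of 0.05, with arrays centred on their medians, without the dim probesets, with 1 probeset per gene tested and without the 4 arrays that stood apart. Over all genes, 6.22% passed at 0.05. In the other settings, in the same order, 557 of 18193, 622 of 12607, 652 of 18193 and 550 of 18193 genes passed. With 1 array left out the count of members ran from 0 to 1 for time within CIE, the 1 being the fit without CIE 8 h replicate 23. It was 0 in such fits of the other comparisons. No paired analysis by replicate number was possible because these numbers name mice and no 2 groups share one, while the inferred hybridization sets, fitted as a block, left each count at 0.

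Bptf at 0 h turned from 0.02 to -0.25 with the mean of its probesets and to -0.0091 without the 4 arrays, and Mysm1 from 0.03 to -0.020 with the mean of its probesets. The causes were not tested. The step of Kdm4a from CIE 0 h to CIE 7 d lost its call under the block, with the mean of probesets (adjusted p = 0.025) and without the 4 arrays (0.027). Kmt2a at 0 h lost its call with array weights (0.068), under the block (0.055), with the 0 h arrays alone (0.14) and without the 4 arrays. Fitting the 0 h arrays alone also ended the calls of the Nap1l1, Cbx5 and Kmt5b probesets, and array weights and the block that of Nap1l1 for 7 d minus 0 h. The second Dnmt3a probeset passed at 0 h without the dim probesets (0.0065) and with trend and robust settings (0.0089), and the dimmer Tet1 probeset passed at 72 h with array weights (0.0089). Over all genes, 352 were called at 0 h, against 159 with array weights, 157 under the block and 6 with the 0 h arrays alone. A lack of calls does not show equal levels.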
